A study of Mus musculus with 12 samples.

Results

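NF-kB is a dimeric transcription factor built from 5 related subunits, encoded by Nfkb1, Nfkb2, Rel, Rela and Relb. In resting macrophages the dimers are held in the cytoplasm by I-kappa-B proteins. LPS, the bacterial cell wall lipid sensed by TLR4, triggers the phosphorylation and breakdown of the classical I-kappa-B proteins (encoded by Nfkbia, Nfkbib and Nfkbie), so that dimers move to the nucleus, where they also switch on genes of their own inhibitors. Nfkbiz and Bcl3 encode atypical I-kappa-B proteins that act in the nucleus as partners of the p50 and p52 subunits. The 10 genes, 5 of each kind, were chosen by symbol, and each had a single entry in both count tables, which hold 17544 genes in the unstimulated state and 17874 in the LPS state, with 16699 genes in common.

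The data are RNA-seq of J774A.1 cells, a mouse macrophage line, in 4 groups of 3 samples: WT and ACAT1 KO cells, each unstimulated or treated with 100 ng/ml LPS for 2 hours. ACAT1 KO cells had received a Cas9-GFP plasmid with a guide to exon 4 of Acat1, which encodes a mitochondrial acetyl-CoA acetyltransferase, and WT cells the same plasmid with no guide. Both genotypes were sorted for GFP, plated at several cells a well and grown into what the methods call single-cell clonal lines. A figure legend of the study describes the unstimulated samples as 3 lines of each genotype, in which case p-values measure the spread between lines. A supplementary legend covering both states instead gives 3 mice per group, so the sources differ on the replicate unit. For the LPS samples the sources used here do not name lines, nor state that a number marks the same line in both states. The study asked how loss of ACAT1 changes the response of macrophages, and the comparisons here are LPS against unstimulated cells in each genotype, ACAT1 KO against WT in each state, and the difference between the LPS responses.

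Libraries held 56948593 to 167280149 counts. Acat1, the targeted gene, ranged from 80.8 to 108 CPM (read counts scaled to library size) without stimulation in WT samples and from 25.5 to 28.9 CPM in ACAT1 KO samples. Its log2 fold change was -1.87 in this state (adjusted p = 0.00876) and -2.08 in the LPS state (adjusted p = 7.87e-04), by the quasi-likelihood test of edgeR with p-values adjusted after Benjamini and Hochberg. All 10 macrophage markers examined were listed in both tables, with summed levels of 8828 to 11574.5 CPM, of which Lyz2 alone was at 5020 to 7413. At an adjusted p of 0.05, 2 of the 10 were lower in ACAT1 KO cells without stimulation, against 1.17% of all genes. After LPS 3 were higher and 2 lower, against 5.93% and 9.12%. Of the 4 markers each of T cells, B cells, neutrophils and fibroblasts 1 was in both tables, and of the 4 of epithelial cells none. The marker in both tables was Cd4 for T cells and Cd79a for B cells, within 0.0305 to 0.938 CPM, and S100a8 for neutrophils, at 2.05 to 5.14. For fibroblasts it was Pdgfra, at 1.14 to 1.67 CPM without stimulation. After LPS Pdgfra was at 5.53 to 6.48 in WT and 11.3 to 13.0 in ACAT1 KO samples. Mpo of neutrophils and Col1a1 and Dcn of fibroblasts were listed in the LPS state only and are not in these values. Unstimulated WT samples 1 and 2 and ACAT1 KO sample 2 had 0.0235% to 0.0360% of counts on antisense noncoding genes, against 0.00743% to 0.00805% in the other 3 unstimulated libraries. Their part in the results was not tested beyond the values given beside each result.

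Upstream sequences of the members are shown first because NF-kB binds its own genes through the kappa-B motif. RefSeq promoter windows (GRCm38.p6, 250 bases before to 50 after the start) were at hand for 7 of the 10 members, and no window was used for Nfkb1, Nfkbiz and Relb. The kappa-B consensus searched has 10 bases, GGG, a purine, any 2 bases, 2 pyrimidines and CC, on either strand. It was present in windows of 5 of the 7 members (Nfkb2, Rel, Nfkbia, Nfkbie and Bcl3) and not in those of Rela and Nfkbib, while 9.55% of the 27025 genes in the table had a match in any window. Counted by window, 7 of the members' 9 windows and 8.46% of all 32851 held it. The windows at the later starts of Nfkb2 overlap, and a match at chr19:46305705-46305714 is counted in each of them. The following 152 bases of each, 140 before the start and 12 from the start on, read 5′ to 3′ on the gene's strand, have the bases covered by matches in capitals.
Nfkbia, chr12:55492636-55492787, minus strand: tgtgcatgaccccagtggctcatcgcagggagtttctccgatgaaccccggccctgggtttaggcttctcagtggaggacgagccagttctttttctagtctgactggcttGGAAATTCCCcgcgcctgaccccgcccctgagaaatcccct
Nfkbie, chr17:45555560-45555711, plus strand: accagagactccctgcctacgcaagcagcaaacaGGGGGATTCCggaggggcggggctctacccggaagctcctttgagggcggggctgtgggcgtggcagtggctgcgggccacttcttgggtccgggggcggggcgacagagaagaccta
Nfkb2, chr19:46304597-46304748, plus strand: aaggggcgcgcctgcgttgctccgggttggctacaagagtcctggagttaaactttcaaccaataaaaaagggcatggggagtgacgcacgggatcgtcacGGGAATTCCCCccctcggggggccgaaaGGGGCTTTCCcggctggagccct
Rel, chr11:23770958-23771109, minus strand: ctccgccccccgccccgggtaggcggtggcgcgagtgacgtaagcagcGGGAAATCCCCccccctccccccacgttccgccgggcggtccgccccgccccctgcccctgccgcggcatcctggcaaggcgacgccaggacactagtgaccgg
Bcl3, chr7:19822744-19822895, minus strand: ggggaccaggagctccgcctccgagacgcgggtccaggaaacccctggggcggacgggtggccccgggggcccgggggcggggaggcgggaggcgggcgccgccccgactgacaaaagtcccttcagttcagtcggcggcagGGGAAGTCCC

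The match in the Nfkbia window ended 20 bases before the start and lay on the opposite strand. Nfkb2 is listed with 3 start sites, and the window shown, at the upstream start, held 2 separate matches, which 0.521% of all windows did. The matches of Rel and Nfkbie began 92 and 106 bases before their starts, and that of Bcl3 began 2 bases after its start. A match is a description of the letters and not a site at which binding was measured.

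LPS raised the transcripts of all 10 members in both genotypes. Fold changes in WT cells ran from 3.08 for Rela to 15.4 for Nfkbie, and in ACAT1 KO cells from 2.62 for Relb to 17.6 for Nfkbie. By the edgeR quasi-likelihood test 10 of 10 members were higher in WT cells, against 29.3% of the 16535 genes tested, and 10 of 10 in ACAT1 KO cells, against 29.5%. The median log2 fold change of the members was 2.31 in WT and 2.35 in ACAT1 KO cells, beside -0.02 and -0.03 over all genes. In bulk RNA a change in the number of expressing cells and in RNA per cell cannot be told apart.

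**Figure D1:**
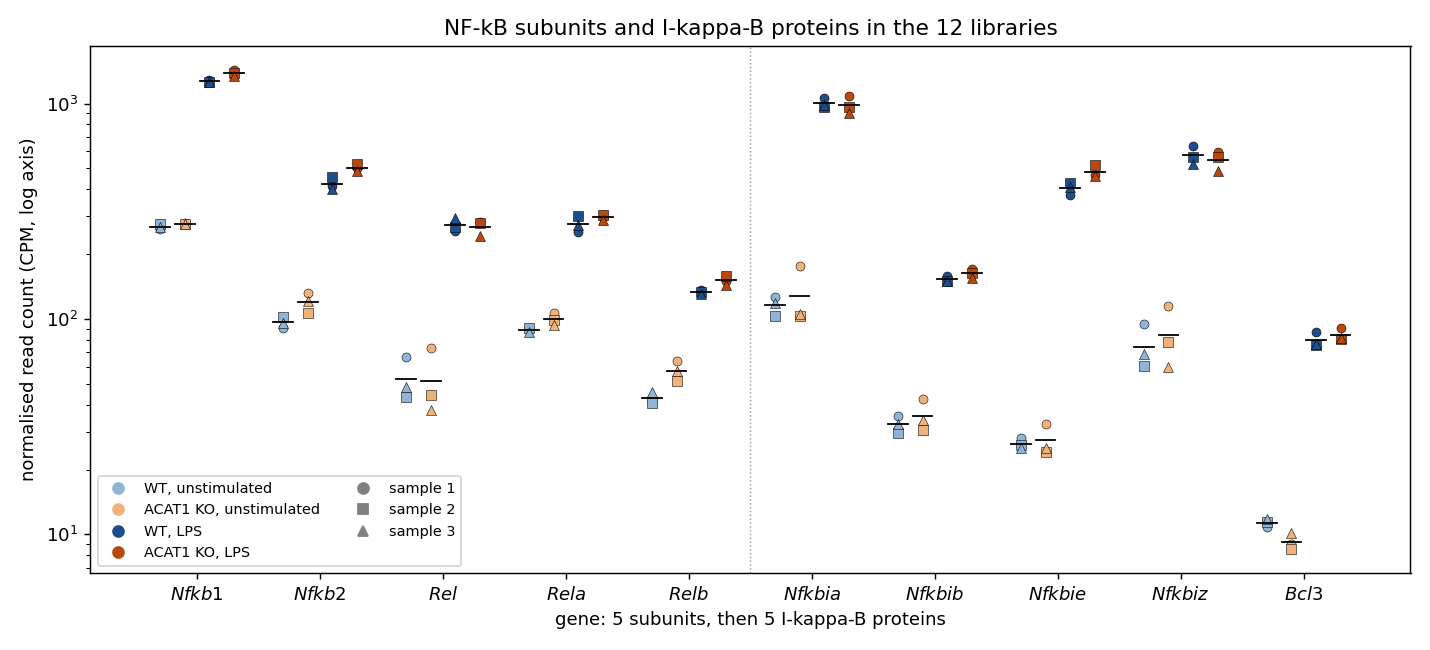
Normalised read count (CPM, log axis) of each of the 10 genes in the 12 libraries, by group (colour) and sample number (shape), with a bar at each group mean of 3 samples. For every gene both LPS groups lie above both unstimulated groups, from 8.56 to 11.9 CPM up to 75.5 to 90.4 CPM for Bcl3.

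Among the subunits, Nfkb1 encodes p105, the precursor of p50. It was at 261, 275 and 266 CPM in WT samples 1 to 3 without stimulation and at 1286, 1259.8 and 1262 after LPS. In ACAT1 KO samples it was at 279, 276 and 276 CPM without stimulation and at 1433, 1391 and 1339.9 after LPS. The states did not overlap, and the log2 fold change was 2.25 (SE 0.0530) in WT and 2.32 (SE 0.0531) in ACAT1 KO cells.

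Nfkb2 encodes p100, the precursor of p52, the partner of RelB in the noncanonical pathway. Its unstimulated values were 90.7, 103 and 96.3 CPM in WT and 132, 107 and 121 CPM in ACAT1 KO samples. After LPS they were 415, 458 and 403 CPM in WT and 504, 524 and 485 CPM in ACAT1 KO samples. In both states the lowest ACAT1 KO value lay above the highest WT value. LPS changed Nfkb2 by 2.14 (SE 0.0868) on the log2 scale in WT and by 2.08 (SE 0.0865) in ACAT1 KO cells.

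Relb encodes a subunit that pairs with p52 and p50. It was at 41.7, 40.6 and 46.1 CPM in unstimulated WT samples and at 63.8, 51.4 and 57.5 CPM in unstimulated ACAT1 KO samples. After LPS it was at 136, 133 and 131 CPM in WT and at 150.5, 158 and 145 CPM in ACAT1 KO samples. The genotypes were separate in both states, and the rise was 1.64 (SE 0.0798) on the log2 scale in WT and 1.39 (SE 0.0790) in ACAT1 KO cells.

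Rela encodes p65, the transactivating subunit of the classical dimer. It ranged from 86.6 to 107 CPM in the 6 unstimulated libraries and from 254 to 304 CPM after LPS, a log2 fold change of 1.62 (SE 0.0723) in WT and 1.57 (SE 0.0721) in ACAT1 KO cells. Rel encodes c-Rel, a transactivating subunit of blood cells. It was at 66.6, 43.4 and 48.1 CPM in unstimulated WT samples and at 73.4, 44.3 and 37.6 CPM in unstimulated ACAT1 KO samples, and at 257, 267 and 294 CPM and 283, 278 and 242 CPM after LPS. Sample 1 of each genotype was the highest without stimulation and not after LPS in WT, so the spread of Rel was wide, and its log2 fold change of 2.37 in both genotypes carried an SE of 0.228 in WT and 0.227 in ACAT1 KO cells.

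Of the 3 classical inhibitors, Nfkbia and Nfkbie had a larger log2 fold change than every subunit in both genotypes. That of Nfkbib lay above the subunits' median of 2.14 in WT and 2.08 in ACAT1 KO cells. It was below those of Nfkb1 and Rel in both genotypes. Nfkbia encodes I-kappa-B alpha, the inhibitor that is broken down and made anew within the first hours of stimulation. It was at 126, 104 and 119 CPM in unstimulated WT samples and at 176, 103 and 105 CPM in unstimulated ACAT1 KO samples. After LPS it was at 1064, 963 and 984 CPM in WT and 1081, 963 and 908 CPM in ACAT1 KO samples. ACAT1 KO sample 1 stood above the other 5 unstimulated libraries, while after LPS the genotypes overlapped. The log2 fold change was 3.11 (SE 0.189) in WT and 2.94 (SE 0.187) in ACAT1 KO cells.

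Nfkbie, which encodes I-kappa-B epsilon, had the largest fold change of the 10. From 28.1, 25.9 and 25.1 CPM in WT and 32.6, 24.3 and 25.1 CPM in ACAT1 KO samples it went to 378, 426 and 411 CPM and to 468, 518 and 462 CPM after LPS. The genotypes overlapped without stimulation and were separate after LPS. The log2 fold change of 3.94 (SE 0.118) in WT was exceeded by 0.587% of the genes tested, and that of 4.14 (SE 0.118) in ACAT1 KO cells by 0.738%. Nfkbib, which encodes I-kappa-B beta, ranged from 29.5 to 42.4 CPM without stimulation and from 150.0 to 170.3 CPM after LPS, with log2 fold changes of 2.23 (SE 0.112) and 2.19 (SE 0.111) in WT and ACAT1 KO cells.

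Of the nuclear members, Nfkbiz encodes I-kappa-B zeta, which LPS is known to induce and which activates a set of secondary response genes. It was at 94.3, 60.6 and 68.7 CPM in unstimulated WT and 115, 77.9 and 59.9 CPM in unstimulated ACAT1 KO samples, and at 636, 567 and 524 CPM and 599, 563 and 485 CPM after LPS. The genotypes overlapped in both states. Its log2 fold change was 2.95 (SE 0.230) in WT and 2.70 (SE 0.227) in ACAT1 KO cells. Bcl3 encodes a nuclear I-kappa-B protein that binds p50 and p52 dimers. It was at 10.8, 11.4 and 11.9 CPM in unstimulated WT and at 9.04, 8.56 and 10.2 CPM in unstimulated ACAT1 KO samples. After LPS it was at 87.4, 75.5 and 76.6 CPM in WT and at 90.4, 81.2 and 81.9 CPM in ACAT1 KO samples. Without stimulation every ACAT1 KO value lay below every WT value, while after LPS the groups overlapped. Bcl3 changed by 2.81 (SE 0.0871) on the log2 scale in WT and by 3.19 (SE 0.0882) in ACAT1 KO cells.

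**Figure D2:**
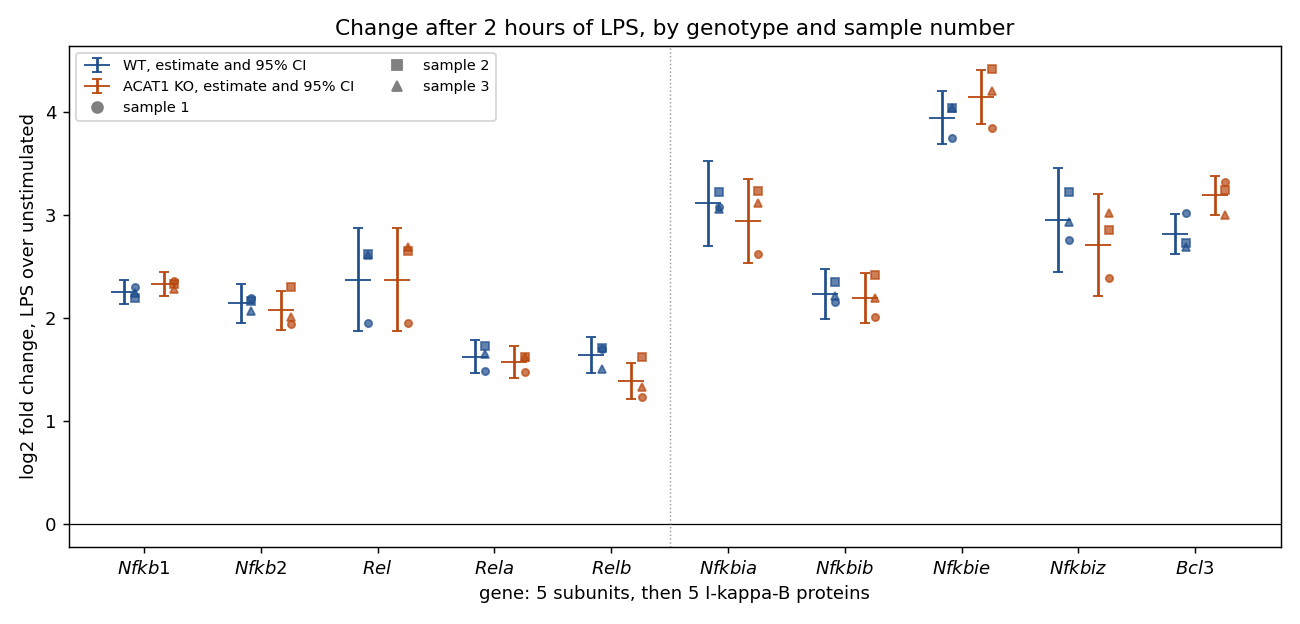
Log2 fold change of LPS over unstimulated cells for the 10 genes in WT (blue) and ACAT1 KO (orange) cells, with the fitted estimate and its 95% confidence interval, and points for the difference between same-numbered samples. All intervals lie above 0, with Nfkbie at 3.94 and 4.14 the highest and Rela and Relb, between 1.39 and 1.64, the lowest.

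The adjusted p of the 20 LPS contrasts was at most 2.77e-06, the value of Rel in WT cells. For each of them the LPS and the unstimulated samples did not overlap, as held upward for 31.4% of all genes in WT and 33.2% in ACAT1 KO cells. An exact permutation test of 3 samples against 3 cannot give a p below 0.1. In every alternative fit 10 of 10 members stayed higher, including upper-quartile normalization, which moved the median of all genes to -0.23 in WT and -0.17 in ACAT1 KO cells. That scaling changed the split of all calls in WT from 4850 higher and 4638 lower to 3628 and 6681, and in ACAT1 KO cells from 4871 and 5166 to 3921 and 6560. Exons of Nfkb2, Nfkbib and Bcl3 overlap exons of genes on the opposite strand over 830, 356 and 161 bases, and whether counting used the strand of the reads is not given in the sources used here, so counts of these 3 genes may include reads of their neighbours.

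Levels of different genes were compared as CPM per kb of exons, with the union of each gene's GENCODE exons as its length. In unstimulated WT cells Nfkbia led with 72.1 ± 7.13 (SD, n = 3), followed by Rela at 29.1 ± 0.788, Nfkb1 at 22.2 ± 0.588 and Nfkb2 at 21.1 ± 1.28. Nfkbib (15.0), Nfkbiz (14.9), Relb (11.01), Nfkbie (8.66), Rel (7.06) and Bcl3 (4.58) came next on this scale. The ranges of Nfkb1 and Nfkb2, of Nfkbib and Nfkbiz, and of Nfkbie and Rel overlapped, so these neighbours were not separated. ACAT1 KO cells had the same first and last genes, with Nfkb2 (26.1 ± 2.75) above Nfkb1 (23.0 ± 0.127).

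After LPS the order changed. In WT cells Nfkbia was at 623 ± 33.1 CPM per kb, and Nfkbie, which had been the eighth, was the second with 133 ± 8.14, ahead of Nfkbiz at 115 ± 11.2 and Nfkb1 at 105 ± 1.21. Nfkb2 (92.8), Rela (89.7), Nfkbib (70.6), Rel (36.5), Relb (34.3) and Bcl3 (32.3) followed, and Nfkbie and Nfkbiz, Nfkbiz and Nfkb1, Nfkb2 and Rela, Rel and Relb, and Relb and Bcl3 overlapped. In ACAT1 KO cells Nfkbie was at 159 ± 10.2 and did not overlap the next gene, Nfkb1, at 115 ± 3.85. The place of Nfkb1 depends on the length used: its exon union spans 12061 bases and its longest transcript 4149, and with the latter its level in unstimulated WT cells was 64.4 in place of 22.2. With longest-transcript lengths Nfkbie went from rank 8 to 4 in WT and from rank 8 to 3 in ACAT1 KO cells.

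The summed level of the 3 classical inhibitors over that of the 5 subunits went from 1.06 ± 0.102 (SD, n = 3) to 2.31 ± 0.145 with LPS in WT cells. In ACAT1 KO cells it went from 1.00 ± 0.202 to 2.13 ± 0.100. The unstimulated and LPS values did not overlap, since the highest unstimulated library, ACAT1 KO sample 1, was at 1.24 and the lowest LPS library, ACAT1 KO sample 3, at 2.07. With longest-transcript lengths the 4 ratios were 0.689, 1.42, 0.670 and 1.31 in the same order. Within the I-kappa-B genes the share of Nfkbie rose from 7.55% ± 0.619 to 13.7% ± 1.35 in WT and from 7.29% ± 0.746 to 16.1% ± 1.41 in ACAT1 KO cells. That of Nfkbib fell from 13.0% ± 0.135 to 7.25% ± 0.0658 in WT and from 13.3% ± 1.54 to 7.60% ± 0.193 in ACAT1 KO cells, and Nfkbia stayed between 60.5% and 65.9% in all 12 libraries. Within the subunits the share of Rela went from 32.2% ± 0.614 to 25.0% ± 1.32 in WT and from 31.5% ± 1.31 to 24.4% ± 0.303 in ACAT1 KO cells. These shares are of transcripts, carry no test, and say nothing of protein.

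**Figure D3:**
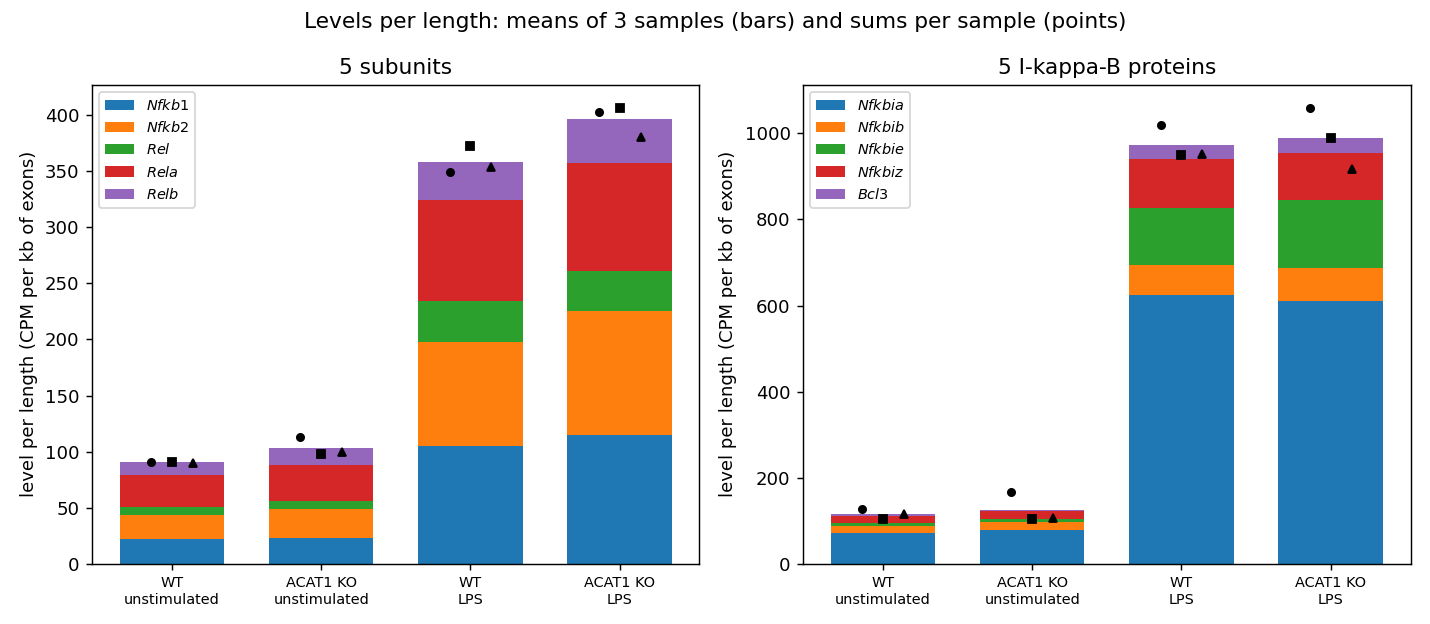
Levels per length (CPM per kb of exons) of the 5 subunit genes (left) and the 5 I-kappa-B genes (right), stacked by gene as means of 3 samples in each group, with points for the sum in each sample. Nfkbia makes up most of the right panel in all groups, and the Nfkbie segment widens from 7.55% to 13.7% of the stack in WT cells.

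Samples of a group did not move alike across the members. Without stimulation, 9 of the 10 members, all but Bcl3, had their highest value in ACAT1 KO sample 1. Of the lists described below, so did 9 of 21 NF-kB target genes and 7 of 30 pathway regulators. The share of all genes highest in a given library was not counted in either state. The members' largest excesses in that sample over the mean of the 6 unstimulated libraries were 0.57 on the log2 scale for Nfkbiz, 0.56 for Nfkbia and 0.53 for Rel. WT sample 1 was the next highest for Rel, at 0.39 above that mean, and for Nfkbiz, at 0.29. ACAT1 KO sample 1 is not one of the 3 libraries with more counts on antisense genes, and WT sample 1 is. After LPS the deviations were smaller, from -0.23 to 0.23, and ACAT1 KO samples 1 and 2 each held the highest value of 4 members.

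**Figure D4:**
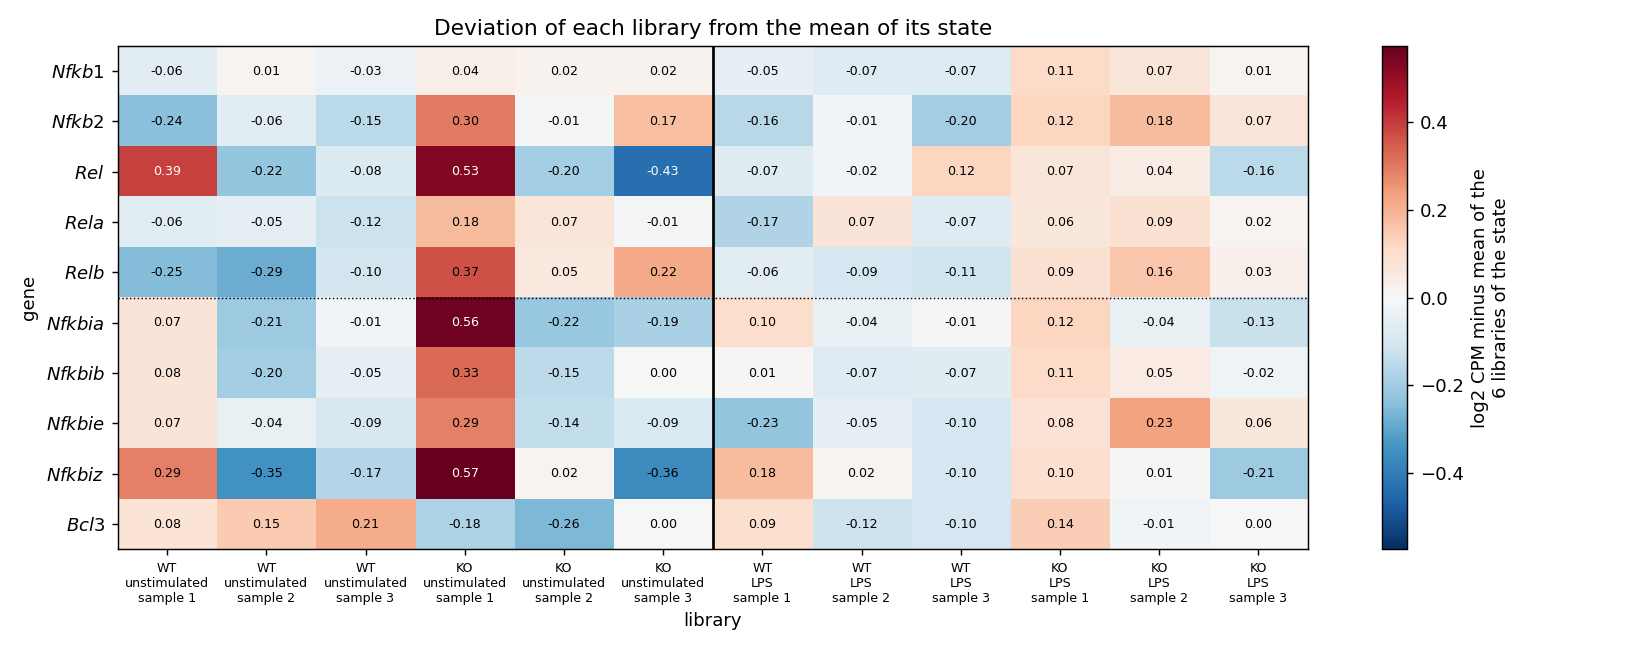
Log2 CPM of each gene in each library minus the mean of the 6 libraries of its state, as colour and number. The column of unstimulated ACAT1 KO sample 1 is positive for 9 of 10 genes, up to 0.57, and the LPS columns are paler than the unstimulated ones.

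The difference between same-numbered samples varied with this. For Rel it was 1.95 in WT and 1.95 in ACAT1 KO pair 1, against 2.61 to 2.68 in the other 4 pairs. Nfkbia differed by 3.08, 3.22 and 3.05 in WT and by 2.62, 3.23 and 3.11 in ACAT1 KO pairs 1 to 3. Nfkbie differed by 3.75, 4.04 and 4.04 in WT and by 3.84, 4.42 and 4.20 in ACAT1 KO pairs. Pair 1 had the smallest rise of Rel, Rela, Nfkbib, Nfkbie and Nfkbiz in both genotypes. For Bcl3 and Nfkb1 pair 1 had the largest rise of each genotype, at 3.01 and 3.32 for Bcl3 and 2.30 and 2.36 for Nfkb1 in WT and ACAT1 KO cells.

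Without stimulation none of the 10 members differed between ACAT1 KO and WT cells at an adjusted p of 0.05, a threshold that 1.91% of 16440 genes passed. The largest difference was that of Relb, at 57.6 ± 6.20 CPM in ACAT1 KO and 42.8 ± 2.90 in WT cells (SD, n = 3), a log2 fold change of 0.44 with a 95% confidence interval of 0.22 to 0.66 (adjusted p = 0.0707 by edgeR's quasi-likelihood test). Nfkb2 followed with 0.32 (0.11 to 0.53; adjusted p = 0.120), and Bcl3 with -0.28 (-0.53 to -0.04; adjusted p = 0.200). At an unadjusted p of 0.05 these 3 and Rela (0.17, adjusted p = 0.216) passed, as did 19.7% of all genes. The other 6 members had log2 fold changes from -0.02 to 0.18. The intervals of Rel (-0.66 to 0.62), Nfkbiz (-0.43 to 0.80) and Nfkbia (-0.35 to 0.65) leave room for changes of either sign.

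The calls for Relb and Nfkb2 depended on the fit. DESeq2 called both, with adjusted p of 8.72e-04 for Relb and 0.0163 for Nfkb2, and a fit of all 12 libraries did so with 0.00862 and 0.0430. limma-voom with quality weights per sample called Relb alone (adjusted p = 0.0498). So did edgeR with a term for the 3 libraries with more antisense counts (0.37, adjusted p = 0.0319). Within those 3 libraries Relb was 0.32 higher in the ACAT1 KO sample than the WT mean and within the other 3 it was 0.40 higher. Nfkb2 was 0.14 and 0.39 higher and Bcl3 0.37 and 0.30 lower in the same order on the log2 scale, while Nfkbia, Nfkbib, Nfkbie and Rel changed sign between the sets. Without ACAT1 KO sample 1 the log2 fold change of Relb was 0.34 (adjusted p = 0.161), that of Nfkb2 0.23 (adjusted p = 0.286), and Nfkbia, Nfkbib, Nfkbie and Nfkbiz turned negative. In 4 members (Nfkb1, Nfkb2, Rela and Relb) every ACAT1 KO value exceeded every WT value, a pattern of 12.2% of all genes, and in Bcl3 every one was lower, a pattern of 13.3%.

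After LPS 3 of the 10 members were higher in ACAT1 KO cells and none lower, against 5.93% higher and 9.12% lower among 16483 genes. Nfkb2 was at 505 ± 19.7 CPM in ACAT1 KO and 425 ± 29.03 in WT cells, a log2 fold change of 0.27 (SE 0.0647, adjusted p = 0.0306). Nfkbie was at 483 ± 31.0 and 405 ± 24.8 CPM, a difference of 0.27 (SE 0.0697, adjusted p = 0.0352), and Relb at 151 ± 6.85 and 133 ± 2.39 CPM, a difference of 0.20 (SE 0.0517, adjusted p = 0.0360). These are fold changes of 1.15 to 1.21, and in CPM the groups did not overlap for these 3 genes and Nfkb1, as was so upward for 15.2% of all genes. The log2 fold change of Nfkb1 was 0.15 (adjusted p = 0.116).

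The remaining members differed by -0.05 to 0.13 on the log2 scale. Rel was at -0.01 with a 95% interval of -0.19 to 0.17, and Nfkbia at -0.01 with an interval of -0.19 to 0.17, which bounds the change of these 2 genes more tightly than in unstimulated cells. All 3 calls were close to the threshold. Leaving out WT sample 1 left Relb alone (adjusted p = 0.0456), leaving out WT sample 2 left Nfkb2 alone (adjusted p = 0.0333), and leaving out WT sample 3 or any ACAT1 KO sample left none. A single fit of all 12 libraries also called none. Its shared spread is larger, and its log2 fold changes of Nfkb2, Relb and Nfkbie were 0.25, 0.18 and 0.25. Why the calls were lost in it was not tested. DESeq2 called 4 members higher, the same 3 and Nfkb1 (adjusted p = 0.0461), and limma-voom called 3. Over all genes DESeq2 called 1325 higher and limma-voom 1110, in place of 977 in the main fit.

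**Figure D5:**
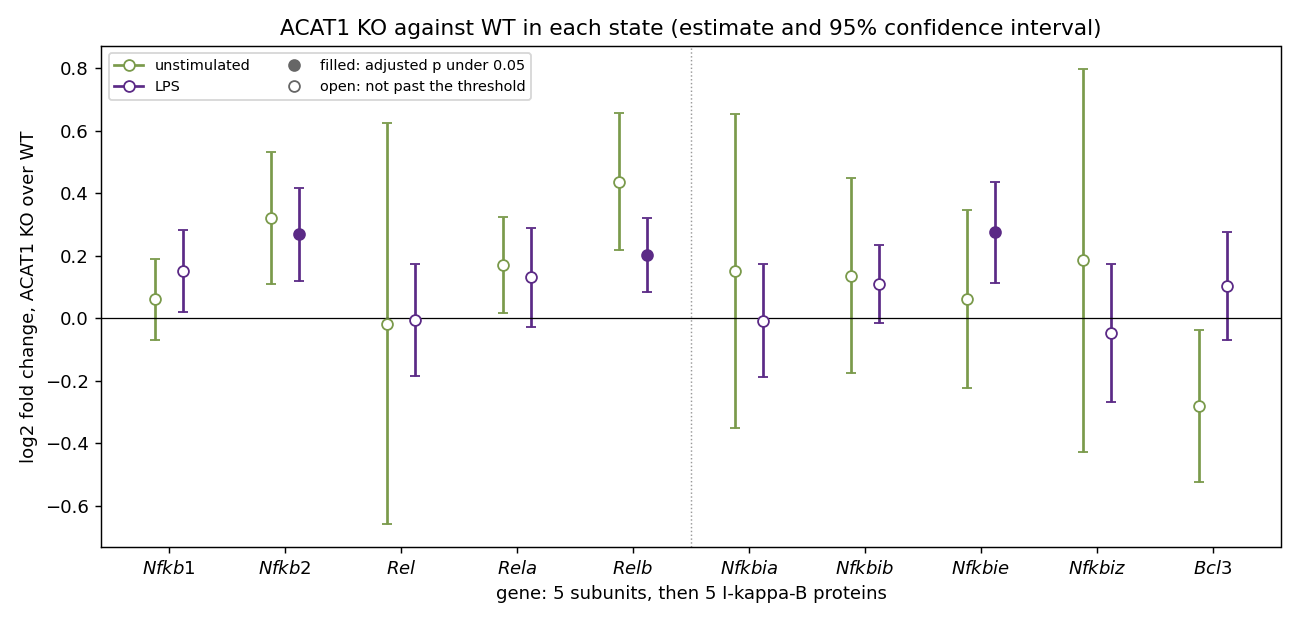
Log2 fold change of ACAT1 KO over WT cells for the 10 genes, unstimulated (green) and after LPS (purple), with 95% confidence intervals and filled points where the adjusted p was under 0.05. Nfkb2, Relb and Nfkbie after LPS, at 0.27, 0.20 and 0.27, are the filled points, and the unstimulated intervals of Rel, Nfkbia and Nfkbiz are the widest.

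The LPS response itself was not found to differ between genotypes for any member: 0 of 10 passed the interaction test in edgeR, in DESeq2 and in limma-voom, where edgeR called 0.187% of 16535 genes, and 2 members had an unadjusted p under 0.05, as had 8.92% of all genes. These were Bcl3, for which ACAT1 KO minus WT was 0.37 (SE 0.116, adjusted p = 0.280), and Relb, for which the difference was -0.25 (SE 0.110, adjusted p = 0.543). With the sample number as a block that pairs the states, the value of Bcl3 was 0.38 (adjusted p = 0.172) and edgeR called 288 genes (1.74%) in place of 31, again with 0 of 10 members. For the other 8 members the difference lay between -0.25 and 0.20, with 95% intervals that reached from -0.91 to 0.67.

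Nfkbia lies at chr12:55489410-55492647 of GRCm38, and the genes of its chromosome had a negative median difference between ACAT1 KO and WT cells, which was -0.26 over 585 genes without stimulation and -0.28 over 584 genes after LPS, where 240 were called lower and 12 higher. Of the 5 tested genes nearest to Nfkbia on either side, Ralgapa1 (-0.46, adjusted p = 0.00376), Prorp (-0.56, adjusted p = 0.00666), Ppp2r3c (-0.33, adjusted p = 0.0191) and Psma6 (-0.26, adjusted p = 0.0452) were lower after LPS, and Aldoart2 (0.75, adjusted p = 0.0468) was higher. Nfkbia, at -0.01, was not among the genes called. The part of the chromosome in the values of Nfkbia was not tested.

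The pathway around the members was described from a list of 30 regulators, among them kinases of the IKK complex, adaptors and ubiquitin enzymes. With LPS 19 rose and 6 fell in WT cells, and 18 rose and 7 fell in ACAT1 KO cells, against 29.3% of all genes higher and 28% lower in WT and 29.5% higher and 31.2% lower in ACAT1 KO cells. With the block pairing the states these were 19 and 7 in WT and 19 and 8 in ACAT1 KO cells. The smallest p-values in WT cells were those of Tnip1 (log2 fold change 3.21), an A20-binding feedback inhibitor, Birc3 (2.31), an inhibitor of apoptosis with ubiquitin ligase activity, Traf2 (1.66), Nkrf (1.74) and Tab2 (0.99). In ACAT1 KO cells Tnip1 (2.98) and Birc3 (2.57) again had the smallest, followed by Birc2 (1.72), Rnf31 (1.41) and Nkrf (1.74). Between genotypes 1 of 30 was lower without stimulation, Tab1 (-0.58, adjusted p = 0.0368), an adaptor of the TAK1 kinase, against 1.17% of all genes lower. After LPS 5 of 30 were higher and 2 lower, against 5.93% and 9.12% of all genes. Rbck1 (0.36), Traf6 (0.25), Nfkbil1 (0.21) and Nfkbid (0.26), an atypical I-kappa-B gene outside the 10, were among the higher ones, and Traf3, which restrains the noncanonical pathway by promoting breakdown of the kinase NIK and whose gene is also on chromosome 12, was lower.

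Traf3 was at 135, 123 and 114 CPM in WT and at 84.0, 81.2 and 73.9 CPM in ACAT1 KO samples after LPS, with no overlap, a log2 fold change of -0.62 (SE 0.0754, adjusted p = 0.00373). Without stimulation it was at 57.6, 56.5 and 42.9 CPM in WT and 38.5, 43.3 and 37.8 CPM in ACAT1 KO samples, where the groups overlapped (-0.38, adjusted p = 0.162). No regulator passed the interaction test, 0 of 30.

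Of 25 NF-kB target genes, 21 were in both tables. LPS raised 19 of the 21 in each genotype and lowered 0 in WT and 1 in ACAT1 KO cells, against 29.3% and 29.5% of all genes higher and 28% and 31.2% lower. The targets had a median log2 fold change of 4.79 and 4.69. The gene that fell in ACAT1 KO cells was Ier3 (-1.37, adjusted p = 0.0161), which in WT cells was at -0.27 (adjusted p = 0.614) and passed with the block (adjusted p = 0.0115). With the block 20 rose in WT cells, and the interaction was called for 5 of 21 targets (Cxcl10, Gadd45b, Ier3, Il1b and Irf1) in place of Gadd45b alone, against 1.74% and 0.187% of all genes. Ccl5 (9.01 in WT), Gadd45b (6.65), Cxcl10 (8.71), Cd40 (5.60) and Icam1 (4.79) had the smallest p-values in WT cells. Without stimulation 0 of 21 differed between genotypes. After LPS 11 of 25 were higher and 3 lower in ACAT1 KO cells, against 5.93% and 9.12% of all genes, with a median of 0.40. Il6 (1.40, adjusted p = 0.0126), Il1b (1.46, adjusted p = 0.0130), Il1a (1.26, adjusted p = 0.0177) and Bcl2l1 (0.65, adjusted p = 0.00642) were higher, and Nos2, which encodes inducible nitric oxide synthase, was lower (-1.12, adjusted p = 0.0158). The list was assembled with earlier results of these data known.

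The gene most like each member was the one with the smallest root mean square difference of centred log2 CPM over the 12 libraries, among 11961 genes. Nfkbia and Nfkbiz were each other's nearest gene, with a difference of 0.161. Nfkb1 lay nearest to Snx10 (0.0840), Nfkbib to Ube2f (0.0882), Relb to 5830448L01Rik (0.0958) and Rela to Rhbdf2 (0.0996). Nfkb2 lay nearest to Rab12 (0.110), Rel to Rnf19b (0.121), Bcl3 to Rap2b (0.133) and Nfkbie to Malt1 (0.161). The libraries share 2 states, so the measure includes the LPS difference: Malt1, which encodes a paracaspase of NF-kB activation, had log2 fold changes of 4.03 and 4.14 in WT and ACAT1 KO cells, beside 3.94 and 4.14 for Nfkbie.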

How the data were processed

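RNA-seq of 12 libraries in 4 groups of 3 was analysed, grouped by the titles in the labels. Per the submitters' processing notes and the study's methods, the authors removed adapters with Trimmomatic 0.33, aligned reads from a directional library kit to GRCm38 with HISAT2 and quantified genes with StringTie. The authors deposited raw counts per gene for each state, and the step that gave whole counts and its use of strand are not given in the sources used here. No gene in the tables falls below 4 counts in more than 1 of 6 libraries. The tables also hold 12 columns of log2 values per library and the columns of the authors' own comparison (log2 fold change, average level, moderated statistic, p-value and adjusted p-value), none of which was used.

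After removal of 59 and 57 repeated entries, counts were tested with edgeR 4.0.16 in R 4.3.3 (filterByExpr, TMM, quasi-likelihood, two-sided, Benjamini-Hochberg over all genes tested, threshold 0.05). Genotypes were compared within each state, and LPS responses and their difference in a fit of all 12 libraries over genes in both tables. CPM are TMM-normalised, log2 CPM used a prior count of 2, and lengths and positions come from GENCODE vM21. The code was tested on simulated data. The chi-square per degree of freedom between samples of a group was 33.2 to 278.6, above the 1 that sampling noise alone would give, and the spread between samples, not counting error, limits precision.

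Alternatives were RLE and upper-quartile factors, no filter, DESeq2 1.42.0, and limma-voom (limma 3.58.1) with quality weights per sample. Others were the replicate number as a block, other sets of libraries in the fit, and leaving out each library. A term for the 3 libraries with more antisense counts was also fitted. Chosen after seeing the data were fits without those 3 libraries or without both pairs numbered 1. Without those 3 libraries WT sample 3 is the only unstimulated WT sample. Unstimulated and LPS samples of a genotype with the same number deviated together from their group means, with correlations of 0.139 to 0.454 over 11961 genes. For different numbers these were -0.344 to 0.0976. Deviations from a group mean offset each other, so the values for different numbers are tied to those for the same number. Unstimulated ACAT1 KO sample 2 correlated at 0.139 with LPS sample 2 and at 0.0976 with LPS sample 3. In fits with a block the numbers were taken to pair the states, an inference from the data. The main fits hold no block. Members and lists were chosen with earlier results of these data known. Of the regulator and target lists at most the 5 called genes with the smallest p in each comparison are named, with the 5 tested genes nearest to Nfkbia on each side and Acat1.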

Additional observations from a re-analysis of the deposited data

Results flagged for a closer look

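By the interaction test without a block, 1 of 21 listed target genes had an LPS response that differed between genotypes. With the sample number as a block 5 did, Cxcl10, Gadd45b, Ier3, Il1b and Irf1. Gadd45b, a stress response gene, was at 1.88, 1.34 and 1.32 CPM in unstimulated WT samples and at 0.869, 0.761 and 0.710 CPM in ACAT1 KO samples. After LPS it was at 142, 161 and 148 CPM in WT and at 169.5, 172 and 156 CPM in ACAT1 KO samples, where the groups overlapped. The genotypes were separate without stimulation, with ACAT1 KO cells lower, a pattern of 13.3% of all genes. That difference, -0.95 on the log2 scale, was not called (adjusted p = 0.0789 by edgeR's quasi-likelihood test). The rise of Gadd45b was larger in ACAT1 KO cells by 1.08 on the log2 scale (SE 0.172, adjusted p = 0.0383 by the same test), and by 1.08 with the sample number as a block (adjusted p = 0.0270).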

How the results depend on the processing

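All 10 members were higher after LPS in both genotypes, and 0 of 10 passed the interaction test, under each alternative. The number of members called in unstimulated cells went from 0 to 2 with DESeq2, 1 with limma-voom, 2 with all 12 libraries in a single fit and 1 with the term for the 3 libraries with more antisense counts, and was 0 with each library left out. After LPS it went from 3 to 0 in the single fit and to 0 to 1 with each library left out.

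Counts over all genes moved more. In unstimulated cells 314 became 1721 with DESeq2, 550 with limma-voom, 1353 in the single fit, 664 with the term, 66 without the 3 libraries and 7 to 522 with each library left out. After LPS 2481 became 3098 with DESeq2, 2735 with limma-voom, 2177 in the single fit and 867 to 2245 with each library left out. The 31 interaction calls became 333 with DESeq2, 19 with limma-voom, 5 without both pairs numbered 1, and 2 to 41 with each library left out. The causes were not tested. Fits that leave out libraries hold fewer samples, and their counts lay on both sides of the main count without stimulation and for the interaction.

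The sources used here do not say that WT and ACAT1 KO samples of the same number belong together. Unstimulated samples 2 of both genotypes are among the 3 libraries with more antisense counts, samples 3 of both are not, and of samples 1 only that of WT is. Deviations of same-numbered pairs correlated at -0.412 for number 1 and 0.745 for numbers 2 and 3 without stimulation. After LPS they correlated from -0.108 to 0.173. The part of the antisense set in a block by number was not tested. With that number as a block, 151 genes were called without stimulation and 2230 after LPS, where the adjusted p of Relb became 0.0548 and 1 in place of 5 regulators was called higher. The call of Tab1 in unstimulated cells was lost (adjusted p = 0.0544), Tnf was lost among the targets after LPS (adjusted p = 0.0699), and Ptgs2 was gained without stimulation (adjusted p = 0.0324). With the number as a block pairing the states, the interaction count became 288, or 457 with the term as well, and the block changed no other call of a member.

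Members near 0 changed sign, none of them past the threshold. The difference of Rel in unstimulated cells (-0.02) was -0.37 to 0.17 with each library left out. It was 0.20 without the 3 libraries with more antisense counts, where WT sample 3 stands alone for WT. Nfkbia (-0.16 to 0.29), Nfkbib (-0.024 to 0.24), Nfkbie (-0.10 to 0.14) and Nfkbiz (-0.12 to 0.38) also crossed 0 there. After LPS Rel (-0.0060) was 6e-04 with RLE factors and with DESeq2, 0.023 with upper-quartile factors and -0.047 to 0.065 with each library left out. Nfkbia (-0.0077) was 0.022 with upper-quartile factors and -0.078 to 0.050 with each library left out, and Nfkbiz was -0.11 to 0.037. The interaction of Rel (-9e-04) was 0.011 with RLE factors, 0.061 with upper-quartile factors, 0.012 with DESeq2, 0.097 with limma-voom, 0.034 with the block, 0.034 with block and term, 0.085 without both pairs numbered 1 and -0.19 to 0.34 with each library left out. With upper-quartile factors that of Rela was 0.0090 and that of Nfkbib 0.022. With block and term that of Nfkb2 was 0.014 and that of Nfkbib 0.029. Without both pairs numbered 1 those of Nfkb2, Nfkbia and Nfkbib were 0.067, 0.069 and 0.062. With each library left out the interaction ranged from -0.14 to 0.015 for Nfkb2, -0.11 to 0.017 for Rela, -0.31 to 0.13 for Nfkbia, -0.14 to 0.11 for Nfkbib and -0.44 to 0.045 for Nfkbiz.

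The ratio of classical inhibitors to subunits was 0.689 and 1.42 in unstimulated and LPS-treated WT cells and 0.670 and 1.31 in ACAT1 KO cells with the longest transcript as the length, since that shortens Nfkb1 the most. With 3 samples a group, differences under about the intervals given for each member could not be shown.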

Other observations

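Tnfaip3, which encodes the feedback inhibitor A20 and was picked out after its values were seen, was high in the same unstimulated samples as Rel and Nfkbiz. It was at 21.2, 7.22 and 6.04 CPM in WT and at 18.2, 10.5 and 6.96 CPM in ACAT1 KO samples 1 to 3. After LPS it was at 307, 364 and 337 CPM in WT and at 423, 393 and 307 CPM in ACAT1 KO samples. Of the 21 target genes in both tables, unstimulated ACAT1 KO sample 1 held the highest value for 9, and ACAT1 KO sample 1 after LPS for 13. The matching shares over all genes were not counted.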
